A study of Mus musculus with 12 samples.

Results

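The interferon regulatory factors (IRFs) are a small family of transcription factors, and 8 of their genes were followed here: Irf1, Irf2, Irf3, Irf4, Irf5, Irf7, Irf8 and Irf9. They were chosen by name, with earlier results of these data known. Each has 1 row among the 43629 gene rows of the count table. The RNA came from neuronal cultures of mouse cortex, in 12 libraries titled IFNG (6) or Control (6). The IFNG group stands for lasting exposure to interferon-gamma from a lentivirus that overexpresses Ifng, given on day 7 in vitro and followed by harvest 10 days later. The treatment label of those samples is IFNy. All 12 samples carry one and the same treatment text, so what the Control cultures received is not given, and neither are the mouse strain, the age at dissection, the promoter of the construct or the cells that it reached.

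IRF proteins share a DNA-binding domain at their amino end that reads GAAA repeats, the core of the interferon-stimulated response element (ISRE). Signals from the interferon-gamma receptor reach genes through another element, the gamma-activated site (GAS). IRF1 and IRF8 are classical genes switched on by that route and go on to activate later interferon genes. IRF2 binds the same elements as IRF1 and is known mainly as its antagonist. IRF9 is the DNA-binding subunit of the complex ISGF3, which also holds STAT2. IRF3 and IRF7 wait in the cytoplasm for phosphorylation by kinases below nucleic acid sensors and then drive the genes of type I interferons. IRF4, IRF5 and IRF8 are best known from lymphoid and myeloid cells.

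The libraries held 13875435 to 34239380 counts, and mitochondrially encoded genes took 3.39 to 5.72% of them. Ifng, the overexpressed gene, stood at 4.98 to 17.8 CPM (counts per 1000000 of the library total, totals scaled by the TMM method) in IFNG cultures and at 0 to 3 counts in each Control culture. The labels and the Ifng level matched in all 12. Neuronal identity genes were abundant in both groups: the summed level of 10 of them, from Rbfox3 to Gad2, ran from 5538 to 6132 CPM in Control and from 4121 to 5274 CPM in IFNG cultures, and 5 of the 10 were lower in IFNG. Astrocyte markers moved the other way. Of 10 listed, 9 were tested and all 9 were higher in IFNG, by a median log2 fold change of 1.14, and their sum ran from 1988 to 2194 CPM in Control and from 3734 to 6166 CPM in IFNG. Over all 15241 genes tested, 14.3% were higher and 9.79% lower. In such bulk RNA, a change in the number of cells of a type and a change in RNA per cell cannot be told apart, and the part of the astrocyte shift in the IRF values below was not tested.

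Of these regulators 7 could be tested and each was higher under interferon-gamma, from 1.69-fold for Irf3 to 295-fold for Irf7. Groups were compared by edgeR's quasi-likelihood test, and adjusted p-values are Benjamini-Hochberg values over the 15241 genes that had enough counts. Among all those genes 24.1% were called in either direction, 14.3% higher and 9.79% lower, and the 7 of 7 members stand beside that background. A further limit goes with this count. Irf1, Irf2, Irf3 and Irf9 had enough counts in the Control cultures alone, while Irf5, Irf7 and Irf8 entered the test through their counts in IFNG cultures, where a gene had to be high, and Irf4 had too few counts in both groups. In 6 of the 8 genes every IFNG culture lay above every Control culture, against 8.75% of the tested genes; the exceptions were Irf3 and Irf4.

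**Figure D1:**
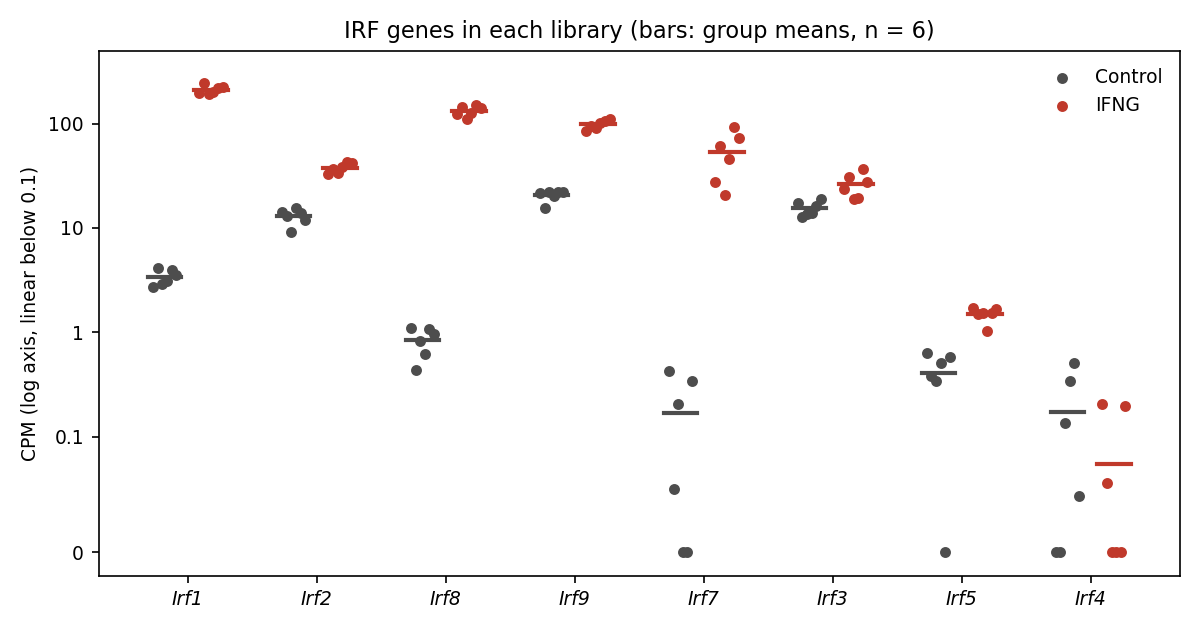
CPM of each of the 8 IRF genes in each library (vertical axis, logarithmic above 0.1 and linear below), Control in grey and IFNG in red, with a bar at each group mean of 6 libraries. Irf1, Irf8 and Irf7 cross the largest distances, the groups of Irf3 touch, and Irf4 stays under 0.51 CPM in all 12 libraries.

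Irf1, an early activator in the response to interferon-gamma, became the most abundant IRF transcript. It stood at 2.69, 4.10, 2.93, 3.10, 3.95 and 3.58 CPM in Control cultures 1 to 6. In IFNG cultures 1 to 6 it stood at 196, 244, 192, 202, 219 and 223 CPM. The lowest IFNG culture was thus 46.8 times the highest Control culture, and the IFNG cultures differed little among themselves, with a coefficient of variation of 9.36%. The log2 fold change was 5.96 ± 0.12 (SE; adjusted p = 1.35e-17), the 141st largest of the 2184 rises. Irf1 (ENSMUSG00000018899) spans 53770014 to 53778374 on the plus strand of chromosome 11 in GRCm38. The minus-strand gene Gm17334 shares 135 of its 3976 exon bases and went from 10 to 605 counts over 6 cultures; without strand information reads of that stretch are uncertain.

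Irf2, the antagonist, rose as well, but far less. It stood at 14.3, 12.9, 9.20, 15.6, 14 and 11.9 CPM in Control cultures 1 to 6 and at 33.2, 36.7, 33.5, 38.4, 42.6 and 42.2 CPM in IFNG cultures 1 to 6. The groups did not overlap, and the log2 fold change was 1.54 ± 0.13 (SE; adjusted p = 1.18e-08). Irf2 (ENSMUSG00000031627) lies on chromosome 8, 46739732 to 46847458, plus strand. Because of this difference the balance of the pair turned over. Per kb of exon, Irf1 stood below Irf2 in all 6 Control cultures, at a mean log2 ratio of -1.03 ± 0.34 (SD, n = 6), and above it in all 6 IFNG cultures, at 3.39 ± 0.14 (SD, n = 6). As plain ratios, that is 0.489 Irf1 for each Irf2 in Control and 10.5 in IFNG. The difference of 4.42 in the log2 ratio gave p = 0.00216 in an exact two-sided permutation test, the smallest that the 924 arrangements of the labels can give, and the same value adjusted over the 3 ratios examined. With the groups of Irf1 so far apart, no other p was possible, and this one restates the rise of Irf1.

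Irf8, which in adults is known above all as a factor of macrophages, microglia and dendritic cells, was among the strongest rises. The Control cultures 1 to 6 held 1.11, 0.437, 0.818, 0.621, 1.07 and 0.967 CPM, or 8 to 21 counts each. The IFNG cultures 1 to 6 held 124, 145, 112, 127, 152 and 140 CPM, or 1737 to 4855 counts each. The log2 fold change was 7.30 ± 0.16 (SE; adjusted p = 3.65e-17), and the lowest IFNG culture was 101 times the highest Control culture. Irf8 (ENSMUSG00000041515) lies on chromosome 8, 120736358 to 120756694, plus strand. Irf8 rose more than Irf1: within a culture its log2 ratio to Irf1 per kb went from -2.86 ± 0.64 to -1.50 ± 0.089 (SD, n = 6 each; exact two-sided permutation p = 0.00216, adjusted 0.00216). Irf1 nevertheless stayed the more abundant of the pair in each of the 12 cultures.

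Irf8 had 91 counts over the Control and 16880 over the IFNG cultures, and the markers of the cells that it is known from are given beside it; their part in its rise was not tested. Of 18 microglial and macrophage markers 4 could be tested, and 1 of them was higher, against 14.3% of all genes tested. This was P2ry12, a purinergic receptor gene of microglia, which went from 8 to 120 counts and entered the test only through its IFNG counts; of the 2 markers with enough counts in Control alone neither rose. The 14 too low to test had 0 to 78 counts each over the Control and 1 to 72 over the IFNG cultures, with more counts in IFNG for 6, fewer for 7 and the same for 1. At the ends were C1qa, a complement gene, with 3 and 57 counts, and Siglech with 26 and 1, while the defining marker Tmem119 had 0 and 3. Spi1, the gene of the partner PU.1 in myeloid cells, had 4 and 2. The sum of all 18 ran from 15.5 to 25.5 CPM in Control and from 19.5 to 31.1 CPM in IFNG cultures. Cd68, a lysosomal gene of macrophages, gave 5.57 ± 1.66 and 5.36 ± 1.86 CPM of that sum in Control and IFNG (SD, n = 6 each; edgeR adjusted p = 0.918). Of 6 dendritic cell markers 3 were tested: Batf3 was higher, having entered through its IFNG counts, Zbtb46 was lower, and Flt3, with 213 and 150 counts, did not pass (edgeR adjusted p = 0.235). The others all had more counts in IFNG, with 0 and 20 for Xcr1, 5 and 8 for Clec9a and 2 and 4 for Itgax.

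The sequences just before the start sites of Irf1, Irf8, Irf2 and Irf7 are given to show which of these genes carry the 2 elements named above next to their starts. They are the 250 bases upstream of a RefSeq start site (build GRCm38.p6), printed in the direction of the gene, with capitals marking every match to a GAS, searched as TTCNNNGAA, or to an ISRE core, searched as GAAA followed, after any 2 bases, by a second GAAA. The first motif reads the same on both strands, and the second was searched on both. The stretches lie at chr11:53769764-53770013 (plus strand) for Irf1, chr8:120736108-120736357 (plus) for Irf8, chr8:46739495-46739744 (plus) for Irf2 and chr7:141266425-141266674 (minus) for Irf7.
Irf1: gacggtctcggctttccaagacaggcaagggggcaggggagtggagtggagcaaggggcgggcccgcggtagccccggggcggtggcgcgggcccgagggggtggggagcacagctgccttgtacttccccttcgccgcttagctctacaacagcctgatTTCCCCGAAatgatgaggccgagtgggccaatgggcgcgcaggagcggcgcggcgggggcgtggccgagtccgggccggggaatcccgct
Irf8: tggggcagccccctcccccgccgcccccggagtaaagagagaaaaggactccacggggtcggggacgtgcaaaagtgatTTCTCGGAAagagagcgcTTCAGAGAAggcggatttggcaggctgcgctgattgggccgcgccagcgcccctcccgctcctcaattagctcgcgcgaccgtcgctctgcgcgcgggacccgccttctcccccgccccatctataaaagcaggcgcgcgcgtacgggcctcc
Irf2: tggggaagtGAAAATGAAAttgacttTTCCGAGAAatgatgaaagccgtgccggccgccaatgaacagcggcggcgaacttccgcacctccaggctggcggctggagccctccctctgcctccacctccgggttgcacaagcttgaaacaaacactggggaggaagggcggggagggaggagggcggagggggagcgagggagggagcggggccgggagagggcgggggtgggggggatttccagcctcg
Irf7: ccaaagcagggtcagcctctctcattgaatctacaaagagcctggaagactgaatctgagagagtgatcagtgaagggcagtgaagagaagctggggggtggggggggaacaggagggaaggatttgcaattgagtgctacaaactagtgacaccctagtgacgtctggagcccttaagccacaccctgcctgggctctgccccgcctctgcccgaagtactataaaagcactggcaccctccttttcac
In Irf1 a single GAS, TTCCCCGAA, ended 82 bases before the start. In Irf8 there were 2, TTCTCGGAA and TTCAGAGAA, which ended 163 and 145 bases before it. Irf2 had an ISRE core, GAAAATGAAA, and a GAS, TTCCGAGAA, which ended 232 and 216 bases before its start. The Irf7 stretch held neither.

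All 8 genes had at least 1 such window in RefSeq, 11 in all, each reaching from 250 bases before to 50 bases after a start. No match to either motif was found in the windows of Irf3, Irf4, Irf5, Irf7 or Irf9, nor in the second window of Irf1 or Irf8. Over all 32851 windows of the same length, 8.30% held the GAS letters, 3.44% the ISRE core and 0.454% both, as Irf2 does. For Irf2, Irf4, Irf7 and Irf9 the GENCODE annotation starts the gene upstream of each RefSeq start. For Irf9 the windows do not reach the GENCODE start. A match is a match of letters, and binding was not measured.

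Irf9 was already well expressed without interferon-gamma and rose by a moderate factor. It stood at 21.7, 15.4, 22.4, 20.3, 21.9 and 22.0 CPM in Control cultures 1 to 6. In IFNG cultures 1 to 6 it stood at 85.1, 95.6, 91.4, 101, 106 and 111 CPM. Control 2 lay below the other Control cultures, and the groups were far apart, with the lowest IFNG culture 3.81 times the highest Control culture. The log2 fold change was 2.26 ± 0.11 (SE; adjusted p = 1.28e-12). Irf9 (ENSMUSG00000002325) lies on chromosome 14, 55603571 to 55610030, plus strand, and shares 123 of 5386 exon bases with Rnf31 on the same strand, which itself went from 3590 to 11081 counts. Stat2, the gene of its partner in the complex, had a larger rise: its Control and IFNG means were 25.7 ± 4.61 and 522 ± 105 CPM (SD, n = 6 per group), a change of 4.34 ± 0.16 on the log2 scale (SE; edgeR adjusted p = 1.65e-14).

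Irf7, the inducible amplifier of type I interferon genes, had the largest fold change of the members tested and the widest spread of them among IFNG cultures. It had 8, 1, 3, 0, 0 and 7 counts in Control cultures 1 to 6, and 403, 2033, 382, 631, 2163 and 1494 counts in IFNG cultures 1 to 6. In CPM the IFNG cultures held 27.3, 60.6, 20.7, 46.3, 92.8 and 73.1, against at most 0.422 in Control. IFNG 3 and IFNG 1 were low and IFNG 5 was high, a coefficient of variation of 51.5%. In the same cultures Irf3 had 26.7%, Irf5 had 16.2%, and Irf1, Irf2, Irf8 and Irf9 had 9.36 to 11.2%. The log2 fold change was 8.20 ± 0.50 (SE; adjusted p = 7.22e-11), the 66th largest of the rises. Irf7 (ENSMUSG00000025498) lies on chromosome 7, 141262706 to 141266481, minus strand, and shares 45 of its 3776 exon bases with Phrf1 on the opposite strand.

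Irf3, its constitutive counterpart, had the smallest change of the genes tested. It stood at 17.5, 12.8, 13.5, 13.9, 16.4 and 19.1 CPM in Control cultures 1 to 6 and at 23.4, 30.9, 18.9, 19.4, 36.9 and 27.4 CPM in IFNG cultures 1 to 6. The groups overlapped slightly, since IFNG 3 lay just below Control 6. The log2 fold change was 0.75 ± 0.16 (SE; adjusted p = 0.0017). IFNG 5 was the highest culture for Irf3, as it was for Irf7; without it the Irf3 log2 fold change was 0.64 (adjusted p = 0.0029). Irf3 (ENSMUSG00000003184) lies on chromosome 7, 44997648 to 45002848, plus strand, and shares 88 of its 3442 exon bases with Bcl2l12 on the other strand. Between Irf7 and Irf3, too, the balance moved: the log2 ratio per kb went from -7.18 ± 1.71 in Control to 0.75 ± 0.57 in IFNG (SD, n = 6 each; exact two-sided permutation p = 0.00216, adjusted 0.00216). Since the Irf7 groups were already far apart and Irf3 moved little, this p could only be the smallest of the 924 arrangements. It restates the rise of Irf7. In IFNG 3 the pair stood level, at -0.01, and in IFNG 6 Irf7 led the most, at 1.28. With 0 Irf7 counts in Control 4 and Control 5, the Control ratio depends on the 0.5 added to each count.

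**Figure D2:**
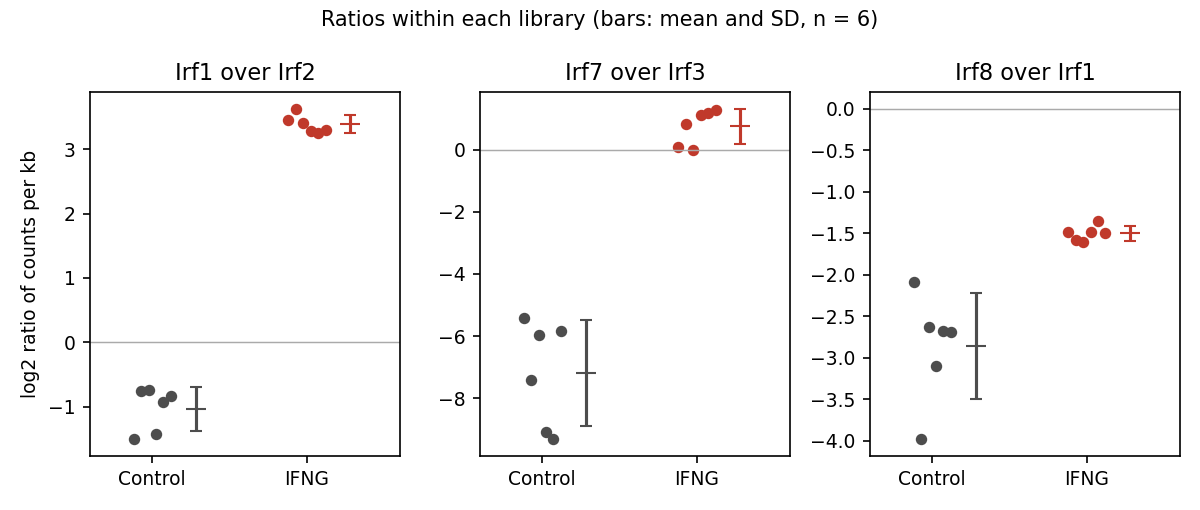
Log2 ratios of counts per kb of exon within each library (points), with the group mean and SD beside them (n = 6). Irf1 over Irf2 lies below 0 in all Control and above 3 in all IFNG libraries, Irf7 over Irf3 reaches about level or above in IFNG, and Irf8 over Irf1 stays below 0 in both groups.

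Irf5, a factor of myeloid and B cells, stayed scarce. The Control cultures 1 to 6 had 12, 7, 5, 9, 0 and 12 counts and the IFNG cultures 1 to 6 had 25, 50, 28, 14, 36 and 34 counts. On the CPM scale the highest Control culture reached 0.633 and the lowest IFNG culture, IFNG 4, 1.03, so the groups did not overlap. The log2 fold change was 1.85 ± 0.49 (SE; adjusted p = 0.0085). Irf5 (ENSMUSG00000029771; chromosome 6, 29526625 to 29541871, plus strand) shares 411 of 2905 exon bases with Tnpo3 on the opposite strand, which had 12143 and 12265 counts, so some of the few Irf5 reads may belong to that gene. Irf4, known from lymphocytes, was at the limit of detection in both groups. It had 0, 0, 2, 6, 9 and 1 counts in Control cultures 1 to 6 and 3, 2, 0, 0, 0 and 4 in IFNG cultures 1 to 6. Over the groups this was 18 of 106526407 counts, or 0.169 CPM on unscaled totals with an exact (Clopper-Pearson) 95% interval of 0.10 to 0.267, and 9 of 126221948, or 0.0713 CPM with 0.0326 to 0.135. These intervals cover counting error only. The exact two-sided permutation test on CPM gave p = 0.403, so no difference in Irf4 (ENSMUSG00000021356; chromosome 13, 30749226 to 30766976, plus strand) was detectable at this depth. Of 16 listed markers of B, plasma, T and NK cells 3 were tested and none passed. The other 13 had 0 to 58 counts each over the Control and 0 to 53 over the IFNG cultures, with more counts in IFNG for 5, fewer for 6 and the same for 2, Cd79b and Cd3d, which had 0 in all 12 cultures.

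The make-up of the family was redrawn. Levels of different genes are compared here as CPM per kb of annotated exon. The length merges all annotated exons of a gene, and parts of the order depend on it. In CPM alone the Control mean was 20.6 for Irf9 and 15.5 for Irf3. The IFNG means in CPM were 213 for Irf1, 133 for Irf8, 98.5 for Irf9, 37.8 for Irf2 and 26.2 for Irf3. In Control the order of means was Irf3 at 4.51 ± 0.73, Irf9 at 3.82 ± 0.49, Irf2 at 1.76 ± 0.30 and Irf1 at 0.853 ± 0.144 (SD, n = 6), with Irf5, Irf8, Irf7 and Irf4 between 0.140 and 0.0350. Irf3 and Irf9 overlapped in range, and Irf5, Irf8, Irf7 and Irf4 overlapped with one another, while Irf1 lay above Irf5 in all 6 Control cultures. In IFNG the order was Irf1 at 53.5 ± 5.01, Irf8 at 18.9 ± 2.11, Irf9 at 18.3 ± 1.81, Irf7 at 14.2 ± 7.30, Irf3 at 7.60 ± 2.03, Irf2 at 5.11 ± 0.55, Irf5 at 0.513 ± 0.083 and Irf4 at 0.0156 ± 0.0200 (SD, n = 6). Irf8 and Irf9 did not separate, with Irf8 the higher in 3 of 6 cultures, and Irf7, from 5.47 to 24.6, overlapped with both and with Irf3. Irf3 and Irf2 overlapped as well, from 5.50 and up to 5.75, though Irf3 was the higher in all 6 cultures.

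The sum over the 8 genes went from 11.3 ± 1.17 to 118 ± 17.0 CPM per kb (SD, n = 6 each). Irf3 and Irf9 made up 39.8 ± 2.7% and 33.9 ± 3.4% of that sum in Control and 6.37 ± 0.95% and 15.6 ± 1.5% in IFNG. Irf1 went from 7.66 ± 1.76% to 45.7 ± 3.6%, and Irf8 from 1.04 ± 0.26% to 16.1 ± 0.7%. Irf2 fell in share from 15.7 ± 2.8% to 4.35 ± 0.33% while rising in level (SD, n = 6 each). Shares were not tested, since they restate the levels above.

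**Figure D3:**
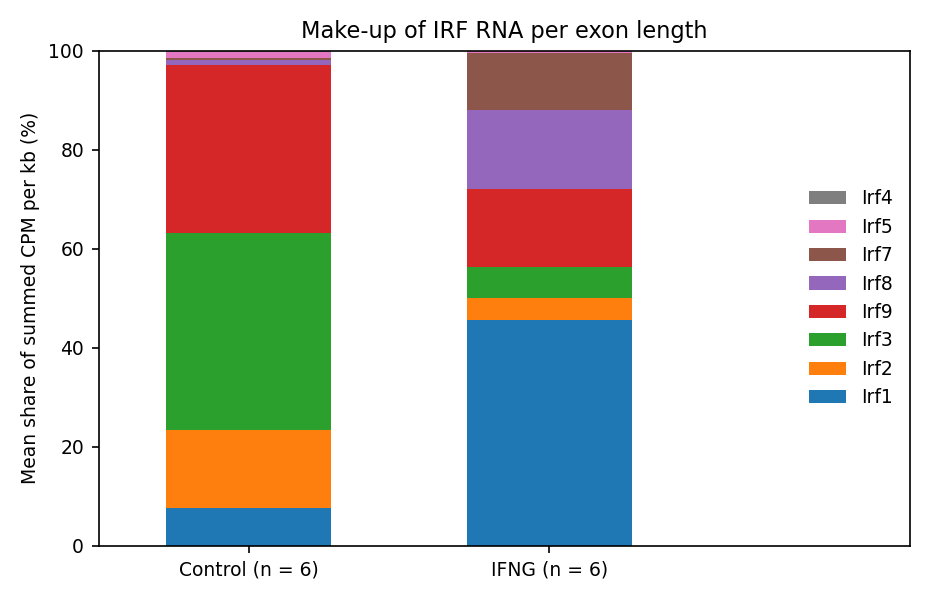
Mean share of each IRF gene in the summed CPM per kb of exon of the 8 genes (stacked bars, in percent; 6 libraries a group). Irf3 and Irf9 fill most of the Control bar, and Irf1 takes 45.7% of the IFNG bar, with Irf8, Irf9 and Irf7 next.

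The IFNG libraries differed in their level of Ifng RNA, which allowed the members to be set against it. Ifng stood at 7.87, 12.5, 4.98, 12.2, 17.8 and 10.8 CPM in IFNG cultures 1 to 6. Of 7 members examined, Irf7 and Irf8 followed it most closely on the log2 CPM scale, with Pearson r = 0.925 (exact permutation p = 0.00694, adjusted 0.0340) and r = 0.921 (exact permutation p = 0.00972, adjusted 0.0340) over 6 cultures. Spearman's rho was 0.829 for Irf7 (exact permutation p = 0.0583, adjusted 0.136) and 0.943 for Irf8 (exact permutation p = 0.0167, adjusted 0.117), so by rank neither passed. The other 5 had r between -0.209 for Irf5 and 0.792 for Irf2, with rho from -0.314 for Irf5 to 0.829 for Irf3, and none of them passed (adjusted exact permutation p of at least 0.134 for r and 0.136 for rho). Without IFNG 3 and IFNG 5, the 2 cultures farthest from the median Ifng, r was 0.767 for Irf7 and 0.636 for Irf8 over the remaining 4, so the relation rests in part on those cultures. On CPM from unscaled totals neither passed (adjusted exact permutation p = 0.0535 each), and with 1 culture left out each passed only where that was IFNG 4, at adjusted p = 0.0389 for Irf7 and 0.0292 for Irf8. The totals of the libraries moved with the same values, at r = 0.552 with Irf7, 0.662 with Irf8 and 0.404 with Ifng; the part of depth was not tested.

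**Figure D4:**
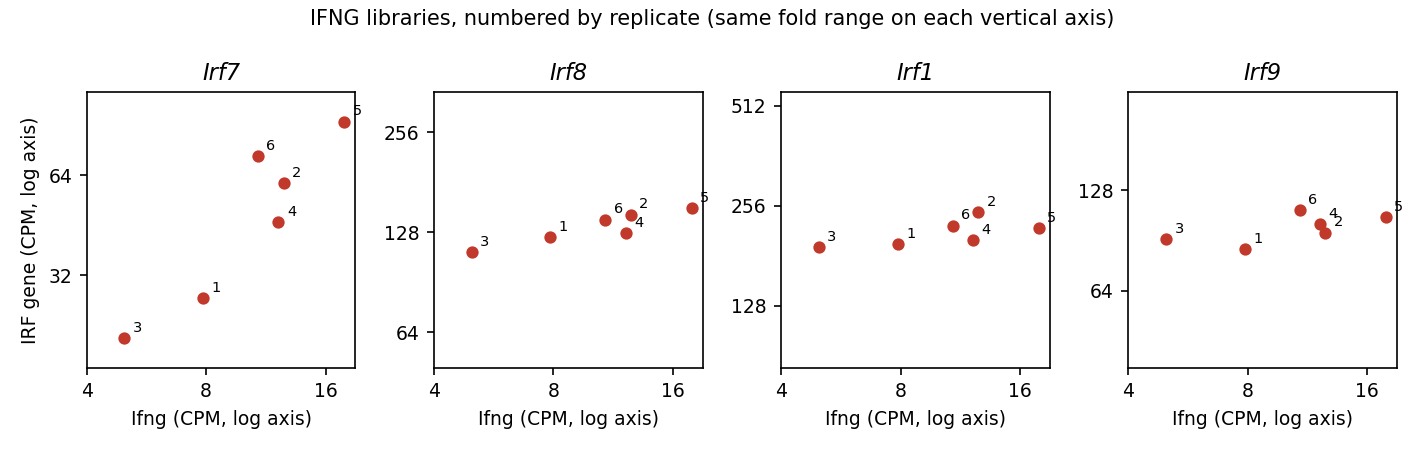
CPM of Irf7, Irf8, Irf1 and Irf9 (vertical axes, logarithmic, all spanning the same fold range) against CPM of Ifng (logarithmic) in the 6 IFNG libraries, numbered by replicate. Irf7 climbs from 20.7 CPM in IFNG 3 to 92.8 CPM in IFNG 5, while Irf1 stays between 192 and 244 CPM and Irf9 between 85.1 and 111 CPM.

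Across all 12 cultures, the genes whose log2 CPM ran most nearly in parallel were looked up for each called member, as a description with no test. The likeness is led by the step between the groups, which these genes share. For Irf1 they were Gbp7 (Pearson r = 0.997), a guanylate-binding protein gene, and Stat2 (r = 0.996). For Irf8 they were the peptide transporter gene Tap1 (r = 0.997) and Pml (r = 0.995), and for Irf9 Pml (r = 0.997) and Asap3 (r = 0.995). Irf7 was nearest to C4b (r = 0.994), a complement gene, and Rab13 (r = 0.993). Irf2 was nearest to Cmpk2 (r = 0.989) and Psmb9 (r = 0.986), Irf5 to Osmr (r = 0.968) and Dhx32 (r = 0.964). For Irf3 they were Eftud2 (r = 0.961) and Selenon (r = 0.960), whose log2 fold changes were 0.37 and 0.45.

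Most of the tested sensors that lie above IRF3, IRF5 and IRF7 rose. Of 10 nucleic acid and Toll-like sensors 7 were tested, 6 were higher and none was lower, against 14.3% higher and 9.79% lower over all genes tested. Their median log2 fold change was 3.94, against -0.02 over all genes tested. Only 3 of the 7 had enough counts in Control alone, and 2 of those 3 rose. Ifih1, the gene of the RNA sensor MDA5, rose by 6.96 ± 0.25 (SE; adjusted p = 1.65e-14) and Rigi, of the RNA sensor RIG-I, by 4.97 ± 0.20 (adjusted p = 9.93e-14). Zbp1, a sensor of left-handed nucleic acids, rose by 6.19 ± 0.36 and Tlr3, the endosomal receptor for double-stranded RNA, by 3.57 ± 0.15. Ifih1 had 54 counts over the Control and 7860 over the IFNG cultures, and Zbp1 had 43 and 3730. Both entered only through their IFNG counts. The DNA sensor gene Cgas stood at 1.89 ± 0.59 and 1.24 ± 0.66 CPM in Control and IFNG (SD, n = 6 each; edgeR adjusted p = 0.283).

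Of the 17 adaptors and kinases that pass the signal on, all tested, 8 were higher and none was lower, with a median log2 fold change of 0.51. Of these genes 15 had enough counts in Control alone, and 7 of the 15 rose. Myd88, the adaptor of Toll-like receptors, rose by 2.57 ± 0.26 (SE; adjusted p = 2.13e-07), Ticam1, the adaptor of TLR3, by 1.21 ± 0.20 and Mavs, the adaptor of the RNA sensors, by 1.17 ± 0.14. The kinase gene Irak1 rose by 0.75 ± 0.13 and Tbk1, whose product phosphorylates IRF3, by 0.42 ± 0.096 (adjusted p = 0.0031). Traf3, the gene of an adaptor shared by several of these routes, did not pass and stood at 170 ± 11.0 and 175 ± 29.5 CPM (SD, n = 6 each; edgeR adjusted p = 0.833).

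Among partners and co-regulators of IRFs 5 of 12 tested genes were higher and none was lower, of 17 listed, with a median log2 fold change of 0.22. Beside this stand 14.3% higher and 9.79% lower over all genes tested. Enough counts in Control alone were found for 10 of the 12, and 3 of those 10 rose. Batf2, which pairs with IRF1, entered only through its IFNG counts, with 2 counts over the Control cultures and 3857 over the IFNG cultures. Its ratio of counts per total was 1628, with an exact 95% interval of 450 to 13444. That interval covers counting error only, and both Control counts came from the same culture. Batf3, a partner of IRF8 that entered in the same way, rose by 2.97 ± 0.52 (SE; adjusted p = 0.00022). Irf2bpl, whose product is related to the IRF2-binding proteins, stood at 152 ± 17.9 and 147 ± 17.5 CPM (SD, n = 6 each; edgeR adjusted p = 0.778). The lymphoid and myeloid partners Spib, Batf, Ikzf1 and Ikzf3 had 0, 0, 18 and 9 counts in Control and 0, 1, 32 and 4 in IFNG, too few to test.

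Of 11 genes whose products restrain IRFs or the pathway above them, 4 were higher and 1 lower, with a median of 0.20. Over all genes tested, 14.3% were higher and 9.79% lower. Of the 11 genes, 10 had enough counts in Control alone, and 3 of those 10 rose. Usp18, which blocks the type I receptor and entered only through its IFNG counts, rose by 7.44 ± 0.34, Trim21, a ubiquitin ligase for several IRFs, by 5.48 ± 0.29, Socs1, the inhibitor of Janus kinases, by 4.73 ± 0.20 and Trim26 by 1.20 ± 0.12 (SE; adjusted p = 7.48e-13, 6.14e-12, 1.86e-13 and 2.55e-07). Fbxw7, of a ubiquitin ligase, was the one that fell, by 0.44 on the log2 scale (adjusted p = 0.00063). Rbck1 stood at 79.1 ± 6.53 and 90.6 ± 11.0 CPM (SD, n = 6 each; edgeR adjusted p = 0.145).

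Genes described as targets of these factors stood far higher in IFNG. Of 17 described targets of IRF1 or IRF8, 13 were tested and 12 rose, and the median of the 13 log2 changes was 6.98. Over all genes tested, 14.3% were higher. Of the 13 targets, 4 had enough counts in Control alone, and 3 of those 4 rose. The death ligand gene Tnfsf10 rose by 9.99 ± 0.27 and Bst2, which tethers budding virus, by 8.89 ± 0.29 (SE; adjusted p = 2.33e-16 and 5.98e-15). Tnfsf10 had 5 counts over the Control and 6635 over the IFNG cultures, and Bst2 had 34 and 19854. Both entered only through their IFNG counts, and their fold changes depend on those few Control counts. The 4 targets too low to test are better known from macrophages: over the Control and IFNG cultures Nos2 had 1 and 1 counts, Cybb 9 and 47, Il12b 6 and 22, and Il27 20 and 11. Aim2 stood at 2.80 ± 1.56 and 1.93 ± 0.55 CPM (SD, n = 6 each; edgeR adjusted p = 0.268). All 14 listed targets of ISGF3 rose, with a median of 7.24, and the 3 that had enough counts in Control alone were among them. Ifi44 rose by 11.46 ± 0.37 and Eif2ak2, the gene of the kinase PKR, by 4.02 ± 0.17, while Adar, abundant in both groups, rose by 0.40 ± 0.088 (SE; adjusted p = 4.52e-15, 1.29e-13 and 0.0019). Ifi44 had 4 counts over the Control and 15408 over the IFNG cultures and entered only through its IFNG counts. Its fold change depends on those few Control counts.

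**Figure D5:**
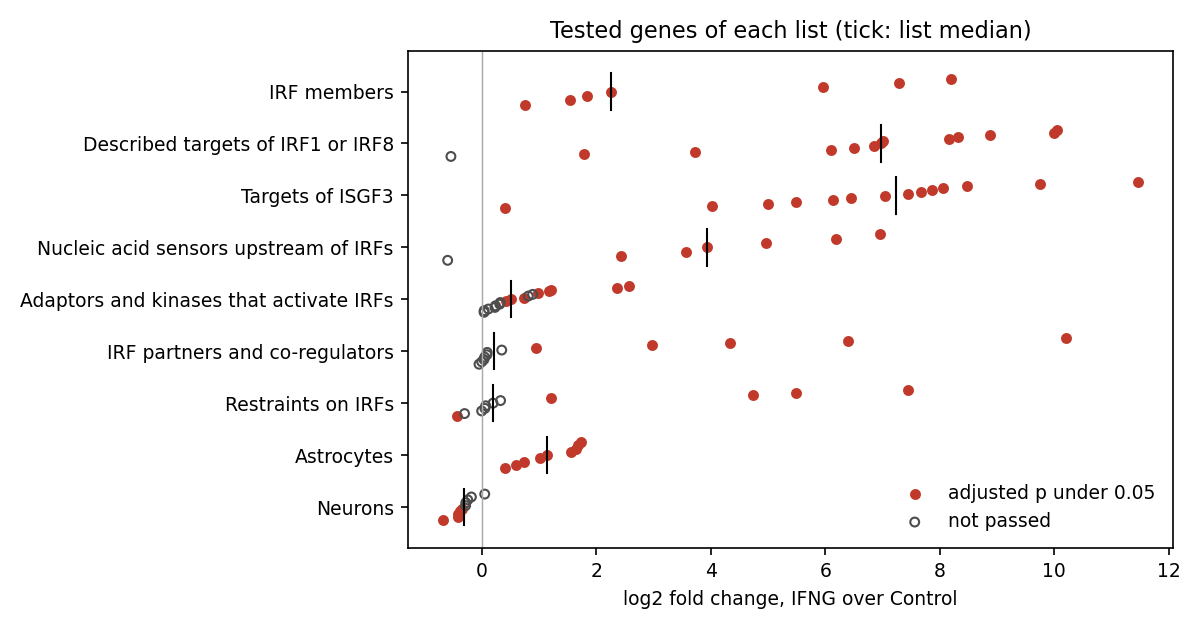
Log2 fold change, IFNG over Control, of each tested gene (points) in the IRF family, its pathway lists and 2 marker lists; filled red points passed at an adjusted p under 0.05, open points did not, and a tick marks the list median. Targets lie far to the right, adaptors, partners and restraints stay mostly near 0 with a few far points, and astrocyte and neuronal markers lie on opposite sides of 0.

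The interferon genes that IRF3 and IRF7 are known to drive stayed at a few counts in both groups. The 20 type I and type III interferon genes listed had 20 counts in total over the Control cultures and 22 over the IFNG cultures, and none had enough to be tested. Ifnb1, the gene of interferon-beta, had 0 and 8 counts, and Ifna4 0 and 6. In the same IFNG cultures Irf7 had 7106 counts. At these counts a low level of interferon gene expression, or one in a few cells, was not detectable.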

How the data were processed

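The samples were 12 poly(A) RNA libraries of mouse cortical neuronal cultures, 6 Control and 6 IFNG, grouped by their titles. The authors deposited raw counts per Ensembl gene, not normalized, one column per library. STAR 2.4, DESeq2, GRCm39 and mm10 are named, without roles, per the submitters' processing notes. For the counter, its strand setting and its annotation, nothing is given in the sources used here. Symbols, exon lengths and positions came from GENCODE M21 (GRCm38), which named 42548 of 43629 rows. Promoter windows came from RefSeq (GRCm38.p6).

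The test was edgeR 4.0.16 in R 4.3.3: TMM scaling, filterByExpr (10 counts at the median total, in 6 libraries), quasi-likelihood F-tests, two-sided, adjusted at 0.05. Standard errors are the absolute log2 fold change over the square root of F. CPM use TMM-scaled totals, and log2 CPM a prior count of 2. Ratios within a library add 0.5 to counts. Alternatives used limma 3.58.1, DESeq2 1.42.0, other scalings and filters, a replicate block and each library left out. The test was checked on simulated counts. No pair of libraries of a group agreed within sampling noise (chi-square per gene at least 7.40). The labels do not say whether samples came from separate cultures or animals. The p-values of group comparisons set the difference only against the spread among these samples, and that spread may be technical.

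The members and lists were chosen with earlier results of these data known. Named genes were the 8 members, Ifng, up to 4 genes of smallest p in each list with its most abundant gene that did not pass, and the 2 genes most correlated with each called member (mean log2 CPM at least 3). Tbk1, Adar, Fbxw7 and genes given by counts were named after their values were seen. Some genes on the lists, though counted in the list totals, are not reported here by name.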

Additional observations from a re-analysis of the deposited data

Results flagged for a closer look

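In 24 groups of 6 libraries examined (Ifng, the 8 members and the 3 ratios, in Control and in IFNG), 2 held a library far from the rest, where chance alone gives about 1 in 20 groups. Irf5 in IFNG 4 was the lowest of the IFNG libraries, at 1.03 CPM against 1.49 to 1.70 CPM in the others, and rests on 14 counts. Irf9 in Control 2 was the lowest of the Control libraries, at 15.4 CPM against 20.3 to 22.4 CPM in the others. Without Control 2 the log2 fold change of Irf9 was 2.19, and without IFNG 4 that of Irf5 was 1.93.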

How the results depend on the processing

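The 7 tested members kept their direction and their call in all 140 refits (7 genes under 20 alternative settings). Their lowest and highest log2 fold changes over those settings were 5.90 and 6.08 for Irf1, 1.47 and 1.65 for Irf2, 0.64 and 0.87 for Irf3, 1.6 and 2.26 for Irf5, 7.96 and 8.70 for Irf7, 7.16 and 7.41 for Irf8, and 2.19 and 2.37 for Irf9. On library totals without the genes called higher, 750 genes were called lower in place of 1492, and 79.8% of all calls were higher in place of 59.4%; by its construction this scaling shifts every gene upward, and the median over all genes tested went from -0.02 to 0.10. The relation to Ifng was less firm. On log2 CPM from unscaled totals r was 0.917 for Irf7 and 0.908 for Irf8, and both lost their call (adjusted exact permutation p = 0.0535 each); the cause was not tested. With 1 IFNG library left out in turn, r ran from 0.858 to 0.975 for Irf7, from 0.816 to 0.986 for Irf8 and from 0.575 to 0.997 for Irf3; with 5 libraries Irf7 and Irf8 passed without IFNG 4 and did not pass without any of the others, and Irf3 passed without IFNG 4 alone. The 3 ratios and the difference of Irf4 kept their side of the threshold in each alternative; leaving out a library moved the Irf4 difference in mean CPM from -0.130 to -0.0282. With the replicate number as a block, 2114 genes were higher and 1563 lower and no member changed its call. The numbers showed no common pairing: the deviations of same-numbered libraries correlated at -0.00096 to 0.124, and 2 of 6 Control libraries correlated best with their own number. Depth limits Irf4, Irf5 and the Control values of Irf7, which rest on 18, 45 and 19 counts over 6 libraries.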
